A study of Triticum aestivum with 18 samples.

Results

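The cell wall proteins of wheat seed were followed in embryo and endosperm at the end of imbibition. They are the 37 probe sets, of 61179 wheat probe sets on the array, that the functional annotation issued with the study places in the MapMan category of cell wall proteins. Membership rests on the annotation alone and not on any expression value. By sub-category there were 14 arabinogalactan proteins (AGP), 9 leucine-rich repeat proteins (LRR), 5 hydroxyproline-rich glycoproteins (HRGP) and 9 reversibly glycosylated polypeptides (RGP). The 37 probe sets stand for 35 sequence accessions, by which they are named here. CA719214 and BQ609014 each have an at and an x_at probe set, and the x_at type holds probes that may also bind other transcripts. The platform gives a wheat gene symbol for 10 members, of 9 genes, and CD454371 and CA722091 share the symbol LOC100037579. The protein names are those of the closest described match, in Arabidopsis, and the annotation calls that match moderate for 11 members, weak for 9 and very weak for 14, with 3 members without a described match.

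Sterile seeds of 1 bread wheat (Triticum aestivum) cultivar were germinated in the dark on wet filter paper for 16 h, until the radicle just broke through, in pure water (CK), in 100 mg/L abscisic acid (ABA), the hormone that holds seeds dormant, or with 100 μmol H2O2, a reactive oxygen species, which the sources give as an amount. Embryo and endosperm were separated by hand, which gave the 6 groups CK_embryo, ABA_embryo, H2O2_embryo, CK_endosperm, ABA_endosperm and H2O2_endosperm, with 3 arrays each and no untreated dry seed. Biotin-labelled RNA was hybridized to the Affymetrix Wheat Genome Array, on which 1 probe set of short probes reports 1 transcript sequence as a signal in the units of Microarray Suite 5.0 (MAS5). Replicates are given as biological ones, each from seed material treated on its own. How many seeds were pooled for an array was not given in the sources used here, and the arrays measure whole dissected tissue, in which fewer cells of a type and less RNA per cell cannot be told apart.

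Plant cell walls hold structural proteins and glycoproteins between their polysaccharides. Arabinogalactan proteins carry large arabinose- and galactose-rich sugar chains, and those of the fasciclin-like (FLA) class, to which all 14 AGP members were matched, also bear fasciclin domains of the kind that mediate adhesion in animals, many of them tethered to the plasma membrane by a lipid anchor. Leucine-rich repeat extensins (LRX) join a repeat domain to an extensin tail that is fixed in the wall, and in Arabidopsis they act in cell growth in roots, root hairs and pollen tubes. Hydroxyproline-rich glycoproteins take their name from the modified prolines on which their sugars sit. Reversibly glycosylated polypeptides differ from the other families in that they work inside the cell, where plant members act as mutases that convert UDP-arabinopyranose to UDP-arabinofuranose, the sugar donor for the arabinose of arabinoxylan and of wall glycoproteins. In cereal grains arabinoxylan is a main wall polysaccharide of the endosperm, and during germination walls are loosened in the growing embryo and broken down in the endosperm.

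The annotation does not describe every member as a wall protein. Of the HRGP members, BU099416 was matched to Arabidopsis AT5G48385, which is described as resembling a hydroxyproline-rich protein and holding a Frigida-like domain, named after a flowering-time regulator. CA746014 and BJ309229 were both matched to AT3G22440, and CD899942 and CD881808 both to AT4G28300. CK209214, matched to AT1G49750, is described as a leucine-rich repeat protein without mention of an extensin part.

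One array stood apart before any comparison was made. On H2O2_embryo replicate 1 the median signal over all wheat probe sets was 137.9, against 59.0 to 81.0 on the other 17 arrays, and 6.79% of the probe sets lay below a signal of 10, against 17.5% to 20.8%. Of 65 probe sets for light-harvesting proteins and the small subunit of rubisco, taken as markers of green tissue, 26 were highest on that array, and their summed signal was 86195 there, 24584 and 30268 on the other H2O2_embryo arrays, and 11468 to 15485 on the CK_embryo arrays. The 3 starchy endosperm markers, for 1 gliadin and 2 low molecular weight glutenins, which were named among the genes the study itself found changed, summed to 875.8 on it, against 99.4 to 171 on the other 8 embryo arrays and 496 to 1643 on the 9 endosperm arrays. On those 17 arrays all 3 were higher in every endosperm array than in every embryo array. Of these 3 markers, 1 was highest of all 18 arrays on H2O2_embryo replicate 1, and 1 lay below 10 on all 3 H2O2_embryo arrays. The 7 embryo markers, an agglutinin and 6 Em protein probe sets, did not separate the tissues in CK (summed signals of 34447 to 37861 in embryo and 36024 to 38178 in endosperm), and were highest under ABA, at 288807 to 314375 in embryo and 143632 to 161789 in endosperm. Counts of called members are therefore given with all 18 arrays and without that array.

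The same array ran through the cell wall proteins. Of the 37 members, 19 had their highest signal of all 18 arrays on H2O2_embryo replicate 1. The share of all probe sets highest on that array was not counted, to set beside the members or the green tissue markers. Without that share the counts here cannot be read as a trait of the members, and their cause was not tested. Against the geometric mean of replicates 2 and 3, with signals under 10 set to 10, 17 members were more than 2-fold higher on it and 2 were more than 2-fold lower. The gap ran from 14.9-fold higher for CA624147, a dim FLA match, to 7.93-fold lower for CK207745, the FLA1 match. The RGP members BJ283175, CA607272, BJ286647 and BJ283983 lay close to their replicates, with ratios of 0.972, 0.994, 1.01 and 1.19.

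**Figure D1:**
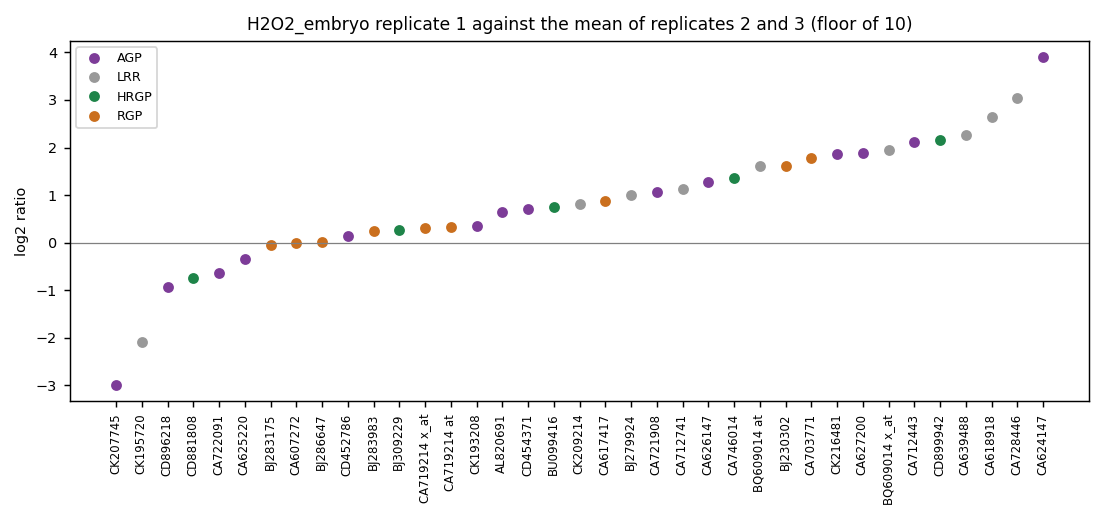
Ratio of the signal on H2O2_embryo replicate 1 to the geometric mean of replicates 2 and 3 (log2, vertical axis, floor of 10) for each of the 37 members (horizontal axis, in order of the ratio, coloured by family). Most points lie above 0, with 17 members more than 2-fold up and 2 more than 2-fold down.

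The members fell into bright and dim ones by their own signals. Averaged over the 18 arrays, 14 members had a signal of 1000 or more, namely 4 AGP, all 5 HRGP and 5 RGP members. A further 7 lay between 100 and 1000 and 16 below 100, and 14 members had at least 1 array below a signal of 10. With the outlying array left out the bands held 13, 7 and 17 members: CD899942 of the HRGP then averaged 826 and the x_at probe set of CA719214 averaged 93.3. None of the 9 LRR members reached 1000, and 7 of them lay below 100. The signal of a probe set depends on its probes as well as on its transcript, so these levels do not rank the transcripts. They do set the error: over the 5 groups other than H2O2_embryo, the median SD between replicates on the log2 scale was 0.10 for the members at 1000 or more, 0.81 for those between 100 and 1000 and 1.04 for those below 100. Of the 16 members below 100 over 18 arrays, 0 were called in any of the 11 comparisons with all 18 arrays.

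**Figure D2:**
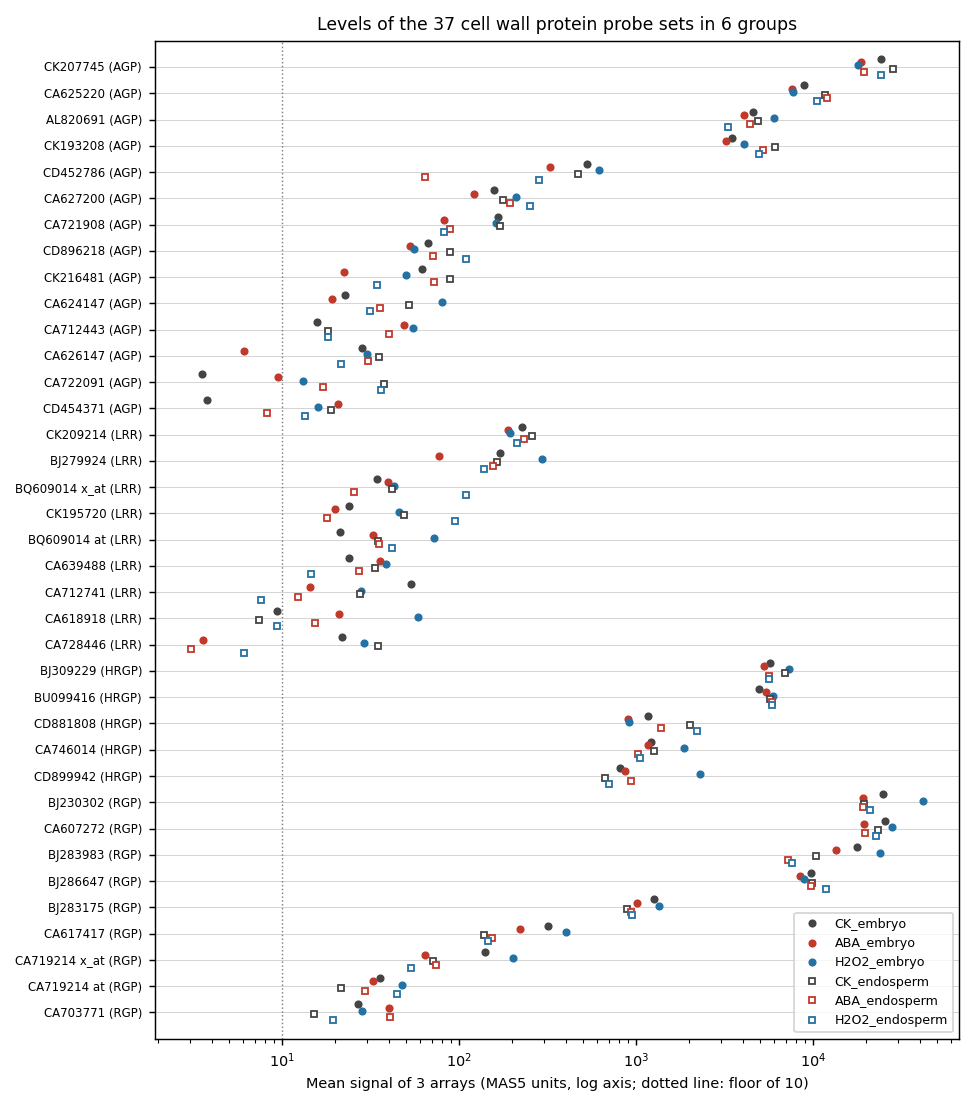
Mean signal of the 3 arrays of each group (horizontal log axis, MAS5 units) for the 37 members, grouped by family, with filled circles for embryo, open squares for endosperm, grey for CK, red for ABA and blue for H2O2. Over the 18 arrays the 5 HRGP members, CD899942 only through H2O2_embryo replicate 1, and 5 of the RGP members average 1000 or more, while 7 of the 9 LRR members average below 100.

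Differences were tested in limma on log2 signals with a floor of 10, over the 57992 probe sets with 3 or more arrays at a signal of 20 or above. All 37 members passed this filter, the least often measured with 4 such arrays. A difference is called, and a member is said to rise or fall, at a Benjamini-Hochberg adjusted p under 0.05 over all probe sets tested. Folds come from the fitted log2 means, and where a group mean lies under 20 the size of the fold is set by the floor. Errors given with a log2 difference are standard errors of the fit, and those given with a signal are SD over 3 arrays.

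With all 18 arrays few cell wall proteins were called under ABA, and those called were lower than in water. In embryo 2 RGP members fell to 0.755-fold of their level in water, BJ283983 and CA607272. In endosperm 1 fasciclin-like AGP fell sharply, CD452786, together with the HRGP member CD881808 and again BJ283983. No member rose in either tissue with all 18 arrays. Both embryo calls of that fit and its call of CD881808 were lost on leaving out any of several single arrays. Without the outlying array more were called: 8 of 37 members fell in embryo and 7 in endosperm, where CD899942 rose. Of all probe sets, 7.13% and 8.56% were then called lower, and 4.86% and 7.06% higher.

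In embryo 2 of 37 members fell under ABA and 0 rose, where 3.08% of all probe sets tested were called lower and 2.66% higher. In endosperm 3 of 37 fell and 0 rose, against 3.60% lower and 3.26% higher over all probe sets. The median log2 difference of the 37 members was -0.24 in embryo and -0.22 in endosperm, where the median over all probe sets was -0.05 and -0.10. Both embryo calls ended with 75th percentile scaling and with no trend of the spread over the level. By sign alone, 28 members lay below CK in embryo and 25 in endosperm. Over all probe sets tested, 31661 lay below and 25742 above in embryo, and 32754 below and 25187 above in endosperm. All groups share 1 estimate of the spread, and the counts were higher without the outlying array: 8 members then fell in embryo, with 7.13% of probe sets called lower, and 7 fell and 1 rose in endosperm, with 8.56% called lower and 7.06% higher. The summed starchy endosperm markers were also higher in ABA_endosperm (1405 to 1643) than in CK_endosperm (496 to 655), with 0 of 3 called. The green tissue markers summed to 9130 to 10619 in ABA_endosperm against 15931 to 18311 in CK_endosperm, with 5 of 55 called lower. The part of both marker lists in the endosperm results was not tested.

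CD452786 is named fasciclin-like protein FLA9 in wheat by the platform, and its very weak Arabidopsis match is FLA7. Its signals in embryo were 597, 498 and 490 in CK, 239, 387 and 350 under ABA, and 659, 546 and 650 under H2O2. In endosperm they were 459, 444 and 503 in CK, 9.0, 65.2 and 119 under ABA, and 316, 356 and 172 under H2O2. The 3 ABA_endosperm arrays lay below all 15 others, and the ABA_embryo arrays lay below all CK_embryo arrays. In endosperm the level fell from 469 ± 31.0 to 64.4 ± 55.1, a log2 difference of -3.46 ± 0.55 and a fitted fold of 0.0912 (adjusted p = 0.00029). The size depends on ABA_endosperm replicate 1, whose signal lay under the floor: without it the log2 difference was -2.41, without replicate 3 it was -4.20, and with a floor and filter of 110 it was -2.05, each still called. In embryo the difference from CK, 326 ± 77.0 against 528 ± 59.2, was not called.

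BJ283983 was matched to Arabidopsis RGP1, one of the arabinose mutases. Its embryo signals were 16691, 18405 and 18167 in CK, 13782, 13426 and 12971 under ABA, and 26866, 22896 and 22180 under H2O2. Its endosperm signals were 10126, 10697 and 10185 in CK, 7481, 7060 and 7016 under ABA, and 7239, 7646 and 7870 under H2O2. In embryo the 3 treatments did not overlap and stood in the order ABA, CK, H2O2, while in endosperm both treatments lay below CK and overlapped each other. ABA lowered it by a log2 difference of -0.41 ± 0.11 in embryo (0.755-fold, adjusted p = 0.024) and of -0.52 ± 0.11 in endosperm (0.695-fold, adjusted p = 0.0032). The embryo call ended when any of 5 embryo arrays was left out, with an adjusted p of up to 0.15 over all alternatives, and without the outlying array the adjusted p was 3.1e-05. The endosperm call was kept under every alternative.

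CA607272 has no described match and is placed with the RGP by the annotation, on an x_at probe set. Its signals in embryo were 25284, 26036 and 25254 in CK, 19129, 18969 and 19726 under ABA, and 27742, 27997 and 27820 under H2O2. In endosperm they were 23207, 23307 and 22946 in CK, 19573, 20029 and 19338 under ABA, and 23001, 22216 and 22640 under H2O2. The ABA arrays lay below the arrays of the other treatments in both tissues, and the H2O2_embryo arrays lay above all others, replicate 1 included. The embryo difference from CK was called, at -0.41 ± 0.10 (0.755-fold, adjusted p = 0.019), and the endosperm difference was not (0.848-fold, adjusted p = 0.21), though it was without the outlying array (adjusted p = 0.0029). The embryo call was lost on leaving out any of the 6 arrays it compares (adjusted p up to 0.09), and also with 75th percentile scaling and with no trend. Without the outlying array, which is not among those 6, its adjusted p was 5.6e-06.

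CD881808 belongs to the HRGP members matched to AT4G28300. Its signals were 1201, 1151 and 1144 in CK_embryo, 870, 875 and 955 in ABA_embryo, and 627, 1090 and 1013 in H2O2_embryo. In endosperm they were 2045, 1922 and 2055 in CK, 1566, 1328 and 1241 under ABA, and 2212, 2213 and 2154 under H2O2. Every endosperm array lay above every embryo array, and within the endosperm the ABA arrays were lowest and the H2O2 arrays highest without overlap. The fall under ABA in endosperm was 0.684-fold (-0.55 ± 0.16, adjusted p = 0.041). It lost its call on leaving out any of 14 arrays, one at a time, and in 4 other settings, the replicate block among them, with an adjusted p of up to 0.17. Without the outlying array the adjusted p was 7.5e-05, and the fall in embryo, 0.772-fold, was then called too (adjusted p = 0.0048).

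In embryo 6 more members fell under ABA only once the outlying array was left out. Besides CD881808 they were the FLA11 match CA625220 (0.852-fold, adjusted p = 0.011), the FLA1 match CK207745 (0.778-fold, 0.049), the LRR member BJ279924 (0.318-fold, 0.040), and the RGP2 matches BJ230302 (0.767-fold, 0.00068) and BJ283175 (0.801-fold, 0.041). Of the 9 RGP members, 4 then fell in embryo. In endosperm the members called only then were CK207745 (0.678-fold, adjusted p = 0.0014), CA607272, the LRR member CA728446 (0.289-fold, 0.039, with all 3 ABA_endosperm signals under 10, so that the fold rests on the floor), the HRGP member BJ309229 (0.819-fold, 0.0016) and, as the only one that rose, the HRGP member CD899942 (1.39-fold, 0.028).

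**Figure D3:**
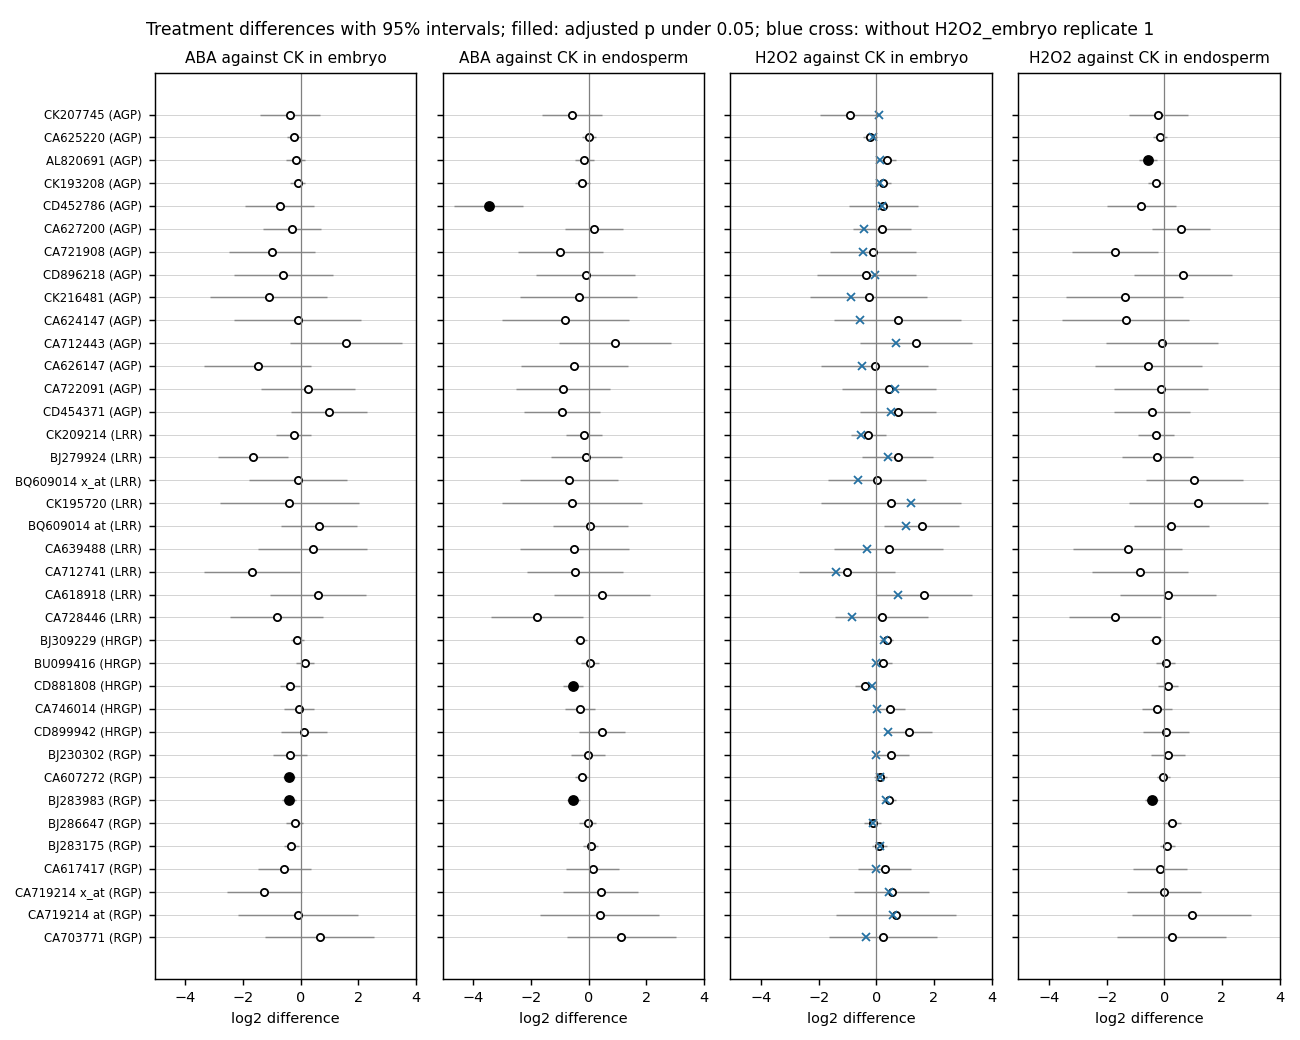
Fitted log2 difference from CK (horizontal axis, same range in the 4 panels) for the 37 members under ABA and H2O2 in each tissue, with 95% intervals, filled points where the adjusted p was under 0.05 and blue crosses for the value without H2O2_embryo replicate 1. The intervals of the HRGP and bright RGP members are narrow, those of dim AGP and LRR members span several log2 units, and CD452786 under ABA in endosperm lies farthest from 0.

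Under H2O2, no member was called in embryo with all 18 arrays, and 2 members fell in endosperm, the FLA11 match AL820691 and the RGP1 match BJ283983. Without the array that stands apart 1 member rose in embryo, again BJ283983, so that this transcript then moved in opposite directions in the 2 tissues.

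In embryo 0 of 37 members rose and 0 fell in limma, where 0.188% of all probe sets were called higher and 0.343% lower. At an unadjusted p under 0.05 there were 7 members. The median log2 difference of the members was 0.23, and 0.12 over all probe sets. By sign 27 members lay above CK and 10 below, where 33644 of all probe sets tested lay above and 24274 below. These values include the outlying array, without which the median over all probe sets was -0.009. Without the outlying array 1 member rose and 0 fell, against 0.550% higher and 0.815% lower. In endosperm 0 of 37 rose and 2 fell, where 3.08% of all probe sets were called higher and 2.38% lower. The median of the members there was -0.16, and -0.004 over all probe sets, and 12 of the 14 AGP members lay below CK by sign. Over all probe sets tested, 29170 lay below CK there and 28615 above. Without the outlying array 4 members fell in endosperm, with 6.47% of all probe sets called lower. The summed starchy endosperm markers were 940 to 1463 in H2O2_endosperm against 496 to 655 in CK_endosperm, with 0 of 3 called. The embryo markers, which did not separate the tissues in CK, summed to 23632 to 24994 against 36024 to 38178, with 3 of the 7 called lower. The part of both marker lists in the endosperm results was not tested.

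AL820691 is a fasciclin-like AGP matched to FLA11, which in Arabidopsis acts in secondary walls of stems. Its embryo signals were 4105, 4885 and 4800 in CK, 4103, 4440 and 3674 under ABA, and 7917, 5305 and 4799 under H2O2. Its endosperm signals were 4917, 4792 and 4834 in CK, 4359, 4600 and 4187 under ABA, and 3043, 3657 and 3177 under H2O2. The H2O2_endosperm arrays were the lowest of all 18, while in embryo only replicate 1 of H2O2 and, by less, replicate 2 stood above CK. H2O2 lowered it in endosperm to 0.677-fold (-0.56 ± 0.15, adjusted p = 0.029). The call ended when any of 5 arrays was left out, namely each CK_endosperm array and H2O2_endosperm replicates 1 and 3 (adjusted p up to 0.13 over all alternatives), and it stood at 4.8e-05 without the outlying array. In embryo the difference was 1.28-fold (adjusted p = 0.30).

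BJ283983 fell in endosperm under H2O2 to 0.734-fold (-0.45 ± 0.11, adjusted p = 0.015), and this call ended without CK_endosperm replicate 2 or H2O2_endosperm replicate 1. In embryo its level under H2O2 was 23981 ± 2524 against 17754 ± 928 in CK, 1.35-fold, with an adjusted p of 0.079. Without replicate 1 of H2O2_embryo it was 1.27-fold and called (adjusted p = 0.0076). The summed green tissue markers were also higher on the other H2O2_embryo arrays than on the CK_embryo arrays. With all 18 arrays 1 of 55 was called higher, and their part in this result was not tested. CK193208, the FLA8 match, and BJ309229 also fell in endosperm once the outlying array was left out (0.816-fold, adjusted p = 0.020, and 0.815-fold, adjusted p = 0.0016).

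For BJ230302 and CK207745, the RGP and AGP members with the highest mean over the 18 arrays, that array gave the most extreme value. Without it BJ230302 averaged 21152, below CA607272 at 22734. BJ230302, an RGP2 match with the wheat symbol LOC543332, gave 24254, 24652 and 25809 in CK_embryo, 19035, 19136 and 19089 in ABA_embryo, and 75488, 27348 and 22088 in H2O2_embryo. In endosperm its signals ran from 18073 to 21463 over the 9 arrays. Replicate 1 of H2O2_embryo alone was 3.07 times the geometric mean of the other H2O2_embryo arrays, and those 2 straddled the CK values. CK207745, matched to FLA1, gave 20973, 26431 and 24637 in CK_embryo, 18424, 18749 and 18639 in ABA_embryo, and 3197, 24266 and 26514 in H2O2_embryo. Its endosperm signals were 25072, 28149 and 31093 in CK, 14304, 21046 and 22675 under ABA, and 24561, 23569 and 24762 under H2O2. Replicate 1 was its lowest array by far, and the ABA arrays lay below the CK arrays in both tissues without overlap. The difference between H2O2_embryo and CK_embryo was 1.43-fold for BJ230302 (adjusted p = 0.39) and 0.532-fold for CK207745 (adjusted p = 0.40) with all arrays. Among the LRR members CK209214 had the highest mean over the 18 arrays. It lay between 113 and 275 on all 18 arrays, with every treated group overlapping CK of its tissue and no call in any comparison.

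Whether a treatment acted differently in the 2 tissues was tested as the difference of the 2 effects. For ABA, 0 of 37 members passed in limma (1.36% of all probe sets were called with an effect higher in embryo and 1.28% lower), and 3 had an unadjusted p under 0.05. CD452786 was the nearest, with an ABA effect 2.73 ± 0.78 higher in embryo than in endosperm on the log2 scale (adjusted p = 0.072), and it passed without the outlying array (adjusted p = 0.017), as did BJ230302 with an effect lower in embryo (-0.37, adjusted p = 0.026). Without that array 4.21% of all probe sets were called with an effect higher in embryo and 4.74% lower.

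For H2O2, 3 of 37 members passed, all with the effect higher in embryo, where 1.51% of all probe sets were called higher and 2.12% lower. They were AL820691 (0.92 ± 0.21 on the log2 scale, adjusted p = 0.016), BJ309229 (0.64 ± 0.14, adjusted p = 0.013) and BJ283983 (0.88 ± 0.15, adjusted p = 0.0016). The 3 calls held without the outlying array, with smaller differences of 0.70, 0.56 and 0.79. Only that of BJ283983 was kept with no trend of the spread and in the fit of the 4 groups alone, and that of AL820691 ended without CK_embryo replicate 1. Without the outlying array CK193208 passed too (0.40, adjusted p = 0.048), where 4.04% of all probe sets were called higher and 4.68% lower.

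BJ309229, matched to AT3G22440, had the highest mean of the HRGP members over the 18 arrays. Its signals were 5594, 5454 and 6055 in CK_embryo, 5165, 5223 and 5376 in ABA_embryo, and 8163, 6747 and 6935 in H2O2_embryo. In endosperm they were 7198, 6807 and 6665 in CK, 5756, 5698 and 5463 under ABA, and 5541, 5805 and 5501 under H2O2. The H2O2_embryo arrays lay above CK_embryo and the H2O2_endosperm arrays below CK_endosperm, without overlap. In CK the endosperm arrays were the higher ones (0.827-fold in embryo, adjusted p = 0.069, and 0.0014 without the outlying array), and under H2O2 the embryo arrays were. Neither change from CK was called on its own with all arrays (1.27-fold in embryo, adjusted p = 0.15, and 0.815-fold in endosperm, adjusted p = 0.11).

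**Figure D4:**
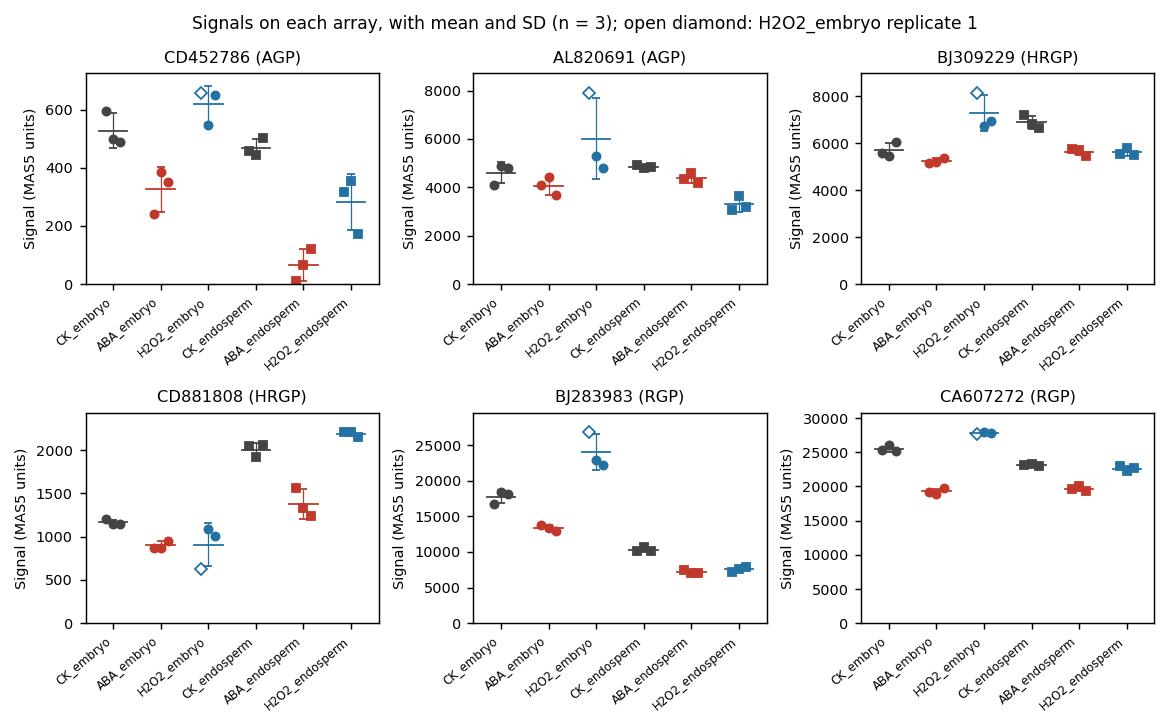
Signals (vertical axis, MAS5 units from 0) on each array of the 6 groups for 6 members called in a treatment comparison or in the tissue difference of an effect, with bars for the mean and SD of 3 arrays and an open diamond for H2O2_embryo replicate 1. CD452786 is near 0 only in ABA_endosperm, and BJ283983 lies higher on all 9 embryo arrays than on any endosperm array.

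Between the tissues in water, 2 RGP members were called higher in embryo, and 2 AGP members and 1 HRGP member higher in endosperm. These are 5.41% and 8.11% of the members, where 11.2% and 6.96% of all probe sets were called. BJ283983 was higher in embryo, and CA625220 and CD881808 higher in endosperm, in water, under ABA and under H2O2 alike.

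In CK, 2 of 37 members were higher in embryo and 3 lower, where 11.2% of all probe sets were called higher and 6.96% lower. The RGP members BJ283983 (1.72-fold, adjusted p = 1.6e-05) and BJ283175 (1.43-fold, adjusted p = 0.0047) were higher. The FLA8 match CK193208 (0.572-fold, adjusted p = 5.5e-05), the FLA11 match CA625220 (0.761-fold, adjusted p = 0.015) and CD881808 (0.580-fold, adjusted p = 0.0011) were lower. By sign 8 of the 9 RGP members lay higher in embryo, with a median log2 difference of 0.51, and 12 of the 14 AGP members lay lower, with a median of -0.21. Of the other families 6 of 9 LRR and 4 of 5 HRGP members lay lower. The sign counts here share the CK_endosperm arrays with those under H2O2 in endosperm. Over all probe sets tested, 28633 lay higher in embryo and 29359 lower. The split of the calls moves with the scaling of the arrays, to 4 higher and 2 lower after quantile normalization and to 1 higher and 5 lower with each array scaled to its 75th percentile, the latter of which moved the median of all probe sets from -0.01 to -0.18. Without the outlying array 4 members were higher and 5 lower, against 15.8% and 11.0% of all probe sets.

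CA625220 gave 8584, 8997 and 9161 in CK_embryo, 7415, 7639 and 7734 in ABA_embryo, and 6453, 8005 and 8504 in H2O2_embryo. In endosperm it gave 11479, 12075 and 11592 in CK, 12645, 11271 and 11823 under ABA, and 10377, 10321 and 10644 under H2O2. Every endosperm array lay above every embryo array. The CK call ended without CK_embryo replicate 1 or CK_endosperm replicate 2, with quantile normalization and with no trend (adjusted p up to 0.14), and the H2O2 call in the fit of only the groups compared (adjusted p = 0.15). CK193208 did the same outside H2O2, with 2974 to 3625 over the CK_embryo and ABA_embryo arrays and 4688 to 6470 over the CK_endosperm and ABA_endosperm arrays, while under H2O2 replicate 1 of the embryo (4757) came close to the endosperm arrays (4809 to 5052).

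Under ABA 2 members were higher in embryo and 3 lower, where 9.70% of all probe sets were called higher and 6.39% lower. CD452786 was 7.48-fold higher (2.90 ± 0.55 on the log2 scale, adjusted p = 0.00064), a value that fell to 1.86 on the log2 scale without ABA_endosperm replicate 1, rose to 3.64 without replicate 3 and was 1.50 with a floor and filter of 110, and lost its call only in the fit of those 6 arrays alone (adjusted p = 0.077). BJ283983 was 1.86-fold higher (adjusted p = 2.9e-06). CA625220 (0.638-fold), CK193208 (0.619-fold) and CD881808 (0.655-fold) were lower, the last not without ABA_endosperm replicate 1. BJ283175, called in CK, was at 1014 ± 49.3 in ABA_embryo and 934 ± 106 in ABA_endosperm and was not called.

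Under H2O2 10 members were higher in embryo and 3 lower, where 13.1% of all probe sets were called higher and 9.62% lower. BJ283983 differed most clearly, at 3.15-fold (1.66 ± 0.11, adjusted p = 2.7e-10), and at 2.97-fold without the outlying array. The other RGP members that were higher were BJ230302 (1.70-fold), the RGP2 match CA617417 (3.16-fold), BJ283175 (1.42-fold), the x_at probe set of CA719214 (3.75-fold) and CA607272 (1.23-fold), which makes 6 of 9, while BJ286647, a putative RGP matched to AT5G16510, was lower (0.756-fold, adjusted p = 0.042). The other 4 that were higher were AL820691 (1.79-fold) and the HRGP members CD899942 (2.52-fold), CA746014 (1.61-fold) and BJ309229 (1.29-fold). CA625220 (0.728-fold) and CD881808 (0.403-fold, adjusted p = 2.5e-06) were lower. The values of CD899942, CA746014 and BJ230302 rest in large part on replicate 1 of H2O2_embryo. Without it CD899942 was 1.53-fold (adjusted p = 0.0062) and BJ230302 was 1.17-fold (adjusted p = 0.047), and CA746014, at 1.18-fold, was no longer called (adjusted p = 0.14). In all 9 members were then higher and 6 lower, against 14.4% and 11.2% of all probe sets, and CK193208, CA627200 and BU099416, all lower in embryo, were called only then. With each array scaled to its 75th percentile the split was 5 higher and 4 lower, and a fit of only these 6 arrays called 4 higher and 1 lower. BJ230302 and CA607272 each lost the call without any of 15 arrays, CA746014 without any of 14, BJ286647 without any of 10 and CA719214 x_at without any of 3. The log2 difference of CA617417, 1.66 with all arrays, was 1.03 without H2O2_endosperm replicate 3 (adjusted p = 0.05), and that of CA719214 x_at, 1.91 with all arrays, was 0.87 with a floor and filter of 110.

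**Figure D5:**
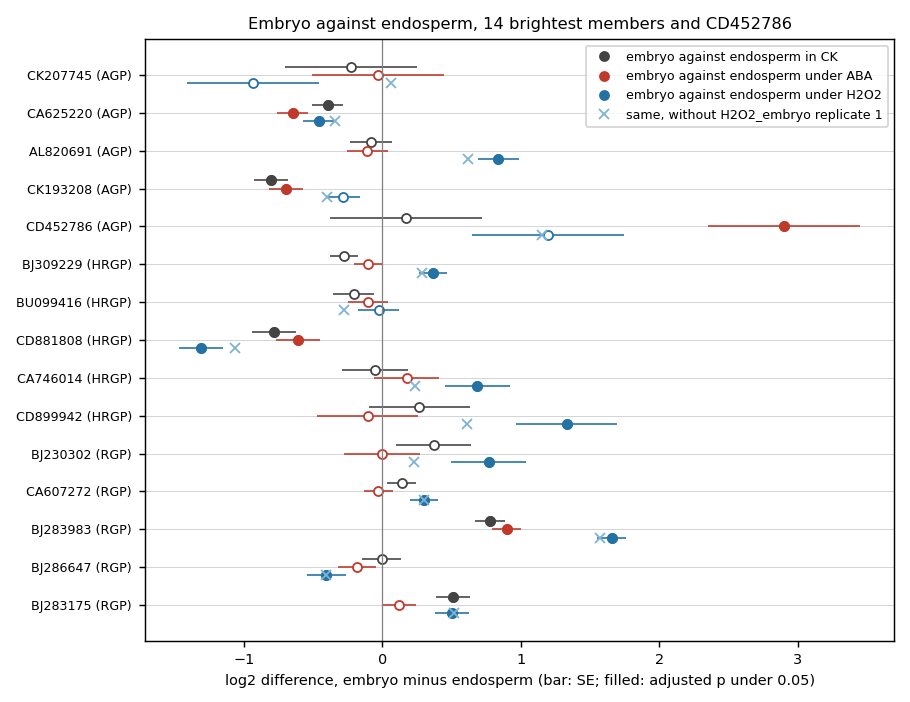
Fitted log2 difference of embryo minus endosperm (horizontal axis, bars for the standard error) in CK (grey), under ABA (red) and under H2O2 (blue) for the 14 members with a mean signal of 1000 or more over the 18 arrays and CD452786, with filled points where the adjusted p was under 0.05 and light crosses for H2O2 without H2O2_embryo replicate 1. BJ283983 lies right of 0 and CA625220 and CD881808 left of 0 in all 3 conditions, and CD452786 is set far to the right under ABA.

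Compared directly, ABA and H2O2 gave 7 members lower under ABA in embryo and 0 higher, where 5.71% of all probe sets were called lower and 4.83% higher. They were AL820691 (0.692-fold, adjusted p = 0.024), the LRR member BJ279924 (0.191-fold, adjusted p = 0.0075), BJ309229 (0.724-fold, adjusted p = 0.0038) and 4 RGP members, BJ230302 (0.534-fold, adjusted p = 0.037), BJ283175 (0.750-fold, adjusted p = 0.034), BJ283983 (0.560-fold, adjusted p = 1.2e-05) and CA607272 (0.692-fold, adjusted p = 0.0014). In the fit of these 6 arrays alone, the outlying one included, 0 members were called. Without the outlying array 8 were lower and 0 higher, against 7.43% and 5.65% of all probe sets. The 7 remained among them, at 0.805, 0.241, 0.768, 0.777, 0.743, 0.594 and 0.691-fold in the same order, and CK207745 joined them at 0.733-fold (adjusted p = 0.024). With all arrays CK207745 had the opposite sign, 0.55 on the log2 scale (adjusted p = 0.56). The AL820691 and BJ283175 calls ended on leaving out 2 and 4 arrays, and that of BJ230302 on leaving out any ABA_embryo array.

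BJ279924 is matched to the LRR/extensin protein AT4G06744 and measured on an x_at probe set. Its embryo signals were 186, 195 and 126 in CK, 86.2, 132 and 12.9 under ABA, and 439, 193 and 249 under H2O2, and its 9 endosperm signals ran from 129 to 174. The low value is that of ABA_embryo replicate 3, without which the log2 difference between ABA and H2O2 in embryo was -1.37, against -2.39 ± 0.56 with all arrays and -1.24 with a floor and filter of 110.

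In endosperm 2 members were lower under ABA than under H2O2 and 0 higher, where 1.73% of all probe sets were called lower and 1.71% higher. They were CD452786 (0.159-fold, -2.65 ± 0.55 on the log2 scale, adjusted p = 0.0063, and -1.61 without ABA_endosperm replicate 1) and CD881808 (0.625-fold, adjusted p = 0.017). The call of CD881808 ended on leaving out any of 5 arrays, with 75th percentile scaling and with no trend (adjusted p up to 0.10), and that of CD452786 in the fit of only the groups compared (adjusted p = 0.19). Without the outlying array 3 were lower and 1, AL820691, was higher (1.33-fold, adjusted p = 0.0018), against 5.52% lower and 4.16% higher over all probe sets. The comparisons of ABA and of H2O2 with water share the CK arrays, so their values for a member are given side by side here and not as evidence for each other.

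Members that share a target did not always move together. Over the 18 arrays the log2 signals of the at and x_at probe sets of CA719214 had a Pearson r of 0.18, those of BQ609014 0.44, and CD454371 and CA722091, of 1 gene symbol, 0.09. These were 0.12, 0.35 and 0.14 over the 17 arrays without the outlying one. Replicate SDs of these 6 probe sets were 0.38 to 1.38 on the log2 scale. The bright RGP probe sets BJ230302 and BJ283983, which the platform numbers as parts of 1 sequence cluster, had an r of 0.63, or 0.67 without the outlying array. These values run over arrays that share groups and scaling, and close RGP copies may share signal on such probe sets.

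The other wall categories of the annotation give the surroundings of these members. Of the 77 probe sets for wall precursor synthesis, 2 rose and 11 fell under ABA in embryo and 7 rose and 12 fell in endosperm, with medians of -0.35 and -0.21 on the log2 scale and with 14.3% and 15.6% falling. Of the 54 tested for cellulose synthesis, 0 rose and 9 fell in each tissue (16.7%), and of the 11 for hemicellulose synthesis 0 were called in embryo and 1 rose in endosperm. Of the 129 tested for wall modification, the category of enzymes and expansins that loosen walls, 7 rose and 26 fell in embryo and 4 rose and 19 fell in endosperm, so that 20.2% and 14.7% fell where 3.08% and 3.60% of all probe sets did. Of all probe sets, 2.66% rose under ABA in embryo and 3.26% in endosperm. Of the 113 for wall degradation, 4 rose and 10 fell in embryo (8.85% falling) and 5 rose and 6 fell in endosperm (5.31%), and of the 36 pectin esterases 0 rose and 3 fell in embryo (8.33%), with 1 each way in endosperm. Under H2O2 in embryo, 2 of 129 wall modification probe sets, 1 of 54 for cellulose synthesis and 1 of 113 for degradation were called, and 0 in the other 3 categories. Of all probe sets, 0.188% rose and 0.343% fell there. Under H2O2 in endosperm, 10 precursor probe sets rose and 6 fell, 3 wall modification probe sets rose and 13 fell, 1 for cellulose synthesis rose and 6 fell, 2 for degradation rose and 3 fell, 1 pectin esterase moved each way and 0 for hemicellulose synthesis were called. Over all probe sets, 3.08% rose and 2.38% fell in that comparison. Between the tissues in CK, 29 of 77 precursor probe sets were higher in embryo and 6 lower, with a median of 0.58, which is 37.7% higher where 11.2% of all probe sets were. Of all probe sets, 6.96% were lower in embryo.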

How the data were processed

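Signals of 18 arrays, 3 for each of 6 groups, were taken as deposited. The authors made these intensities with MAS5, which joins the probes of a probe set into 1 linear signal and scales each array by 1 factor (target of 100 in the methods, while the trimmed mean of each deposited column is 500.1). No detection calls were used. The 111 control probe sets were left out, signals under 10 were set to 10, and the 57992 of 61179 probe sets that had 3 or more arrays at 20 or above went into limma 3.58.1 (R 4.3.3), fitted on 6 group means, with eBayes and a trend, and p-values adjusted by Benjamini-Hochberg over all of them. The pairwise SAM of the study's methods was not repeated. Array number, 3 per group, limits the precision. Alternatives were other floors and filters, quantile and 75th percentile scaling, no trend, a fit of only the groups compared, an adjusted p of 0.01, a replicate block and each array left out. Members came from the 1418 annotation rows held here, of which 1415 matched probe sets. Marker names came from the names given to the study's changed genes. Values on each array are given for members called in a treatment comparison or in the tissue difference of an effect, for the brightest member of each family, and for a few members chosen after their values were seen (CA625220 and BJ279924). The members and lists were chosen with earlier results of these data known. Sequences and genome positions were not used here.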

Additional observations from a re-analysis of the deposited data

Results flagged for a closer look

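The effect of H2O2 differed between embryo and endosperm for 3 members, by limma's test of the difference of the 2 effects. The effect was higher in embryo by 0.92 on the log2 scale for the fasciclin-like AGP AL820691 (adjusted p = 0.016), by 0.64 for the HRGP member BJ309229 (adjusted p = 0.013) and by 0.88 for the RGP1 match BJ283983 (adjusted p = 0.0016). In endosperm the 3 H2O2 arrays lay below the 3 CK arrays for each of them. In embryo all 3 H2O2 arrays lay above all CK arrays for BJ309229 and BJ283983, and for AL820691 the values of 4799 to 7917 overlapped those of CK. The summed green tissue markers were 24584 to 86195 in H2O2_embryo and 11468 to 15485 in CK_embryo, with 1 of 55 called higher. In H2O2_endosperm the starchy endosperm markers summed to 940 to 1463, against 496 to 655 in CK_endosperm, with 0 of 3 called. The embryo markers, which did not separate the tissues in CK, summed to 23632 to 24994 against 36024 to 38178, with 3 of 7 called lower. The part of these marker lists in the differences was not tested.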

How the results depend on the processing

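Counts of called members are given in the order ABA in embryo, ABA in endosperm, H2O2 in embryo, H2O2 in endosperm, embryo against endosperm for CK, ABA and H2O2, the tissue difference of the ABA and of the H2O2 effect, and ABA against H2O2 in embryo and in endosperm. With all 18 arrays they were 2, 3, 0, 2, 5, 5, 13, 0, 3, 7 and 2. With each array left out in turn they ranged from 0 to 8, 2 to 8, 0 to 2, 0 to 4, 4 to 9, 4 to 6, 8 to 15, 0 to 2, 2 to 4, 4 to 9 and 1 to 4, and without H2O2_embryo replicate 1 they were 8, 8, 1, 4, 9, 6, 15, 2, 4, 8 and 4. A fit of only the groups compared gave 7, 6, 0, 4, 9, 4, 5, 2, 1, 0 and 2, no trend 0, 2, 0, 0, 4, 4, 8, 0, 1, 3 and 1, and an adjusted p of 0.01 gave 0, 2, 0, 0, 4, 5, 6, 0, 1, 4 and 1. A floor and filter of 110 gave 2, 5, 3, 4, 7, 5, 15, 1, 4, 10 and 2, a floor of 32 gave 2, 5, 1, 3, 6, 5, 12, 1, 3, 7 and 2, and a filter of 100 gave 2, 5, 1, 3, 7, 6, 13, 0, 3, 9 and 2. Scaling to the 75th percentile gave 0, 2, 0, 2, 6, 6, 9, 0, 3, 6 and 1, and quantile normalization 2, 2, 0, 1, 6, 5, 11, 0, 3, 7 and 2. The replicate block gave 2, 2, 0, 2, 5, 5, 11, 0, 3, 7 and 2. Same-numbered arrays did not deviate together (correlations of -0.04 to 0.05 over 21 pairs). The correlations ran over all probe sets tested, noisy dim ones included, so they cannot tell whether same-numbered arrays shared seed material. A floor of 1 left every count as it was, and dropping the filter moved none of them by over 1.5 times. The causes were not tested.

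Of the 42 calls of 16 members, 0 changed sign under any of these alternatives, 25 were kept with every array left out in turn, and 12 were kept under every alternative, among them CD452786 and BJ283983 under ABA in endosperm and the higher level of BJ283983 in embryo in each condition. The fit of only the groups compared ended 20 calls, no trend 19 and 75th percentile scaling 11. Of the 16 members that average below 100, 0 were among the calls. On some array 14 of 37 members fell under a signal of 10, where the floor sets the value.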
